A study of Mus musculus with 6 samples.

Results

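The ventricular chambers of the heart can be told from the atria by the transcription factors and contractile proteins that their muscle cells make. Here 10 genes of this kind were followed in whole hearts of mouse embryos: the 6 Iroquois homeobox genes (Irx1 to Irx6), the ventricular myosin genes Myl2, Myl3 and Myh7, and Mycn. They were taken by name from the deposited count table, where each of the 10 had 1 row among 46983 genes, and all 10 passed the filter on low counts that left 17473 genes for testing. Each library held the RNA of a single heart taken at E13.5. The 3 mutant hearts are replicates 1, 5 and 10, and the 3 hearts labelled wild type are replicates 2, 3 and 5. The mutants carried 1 Tnnt2 Cre allele and 2 floxed Wt1 alleles. By the methods of the study, the wild type group carried the same 2 floxed Wt1 alleles without Cre, so floxed Wt1 was common to all 6 hearts. All embryos were of mixed C57BL/6 x DBA/2 background. The Tnnt2 promoter drives Cre in the cardiomyocyte lineage from early development, and the methods also describe recombination in part of the epicardium. The comparison asks what the loss of Wt1 in that lineage changes in the embryonic heart.

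Iroquois proteins are transcription factors with an atypical (TALE class) homeodomain. In the heart, Irx4 is known as a factor of the ventricular myocardium that holds down atrial genes, and Irx3 and Irx5 are known for patterning conduction and repolarization in the ventricular wall. Myl2 and Myl3 encode the ventricular regulatory and essential light chains of myosin and Myh7 the slow beta heavy chain, while Myl7, Myl4 and Myh6 encode their counterparts that mark atrial muscle, although the embryonic ventricle also makes alpha heavy chain. Mycn, a relative of Myc, is known for driving division of cardiomyocytes in the compact ventricular wall.

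The 6 Iroquois genes lie in 2 clusters of the mouse genome (GRCm38, GENCODE M21). Irx1 (chr13:71957921-71963723, minus strand), Irx2 (chr13:72628820-72634198, plus strand) and Irx4 (chr13:73260479-73269608, plus strand) form the first, with 665.1 kb between Irx1 and Irx2 and 626.3 kb between Irx2 and Irx4. Irx3 (chr8:91798525-91802067, minus strand), Irx5 (chr8:92357625-92376286, plus strand) and Irx6 (chr8:92674288-92680956, plus strand) form the second, with gaps of 555.6 kb and 298.0 kb. Because the 6 proteins are alike, the stretch of 60 coding bases in which the other genes together differ least from Irx4 was looked up. It lies in the homeobox. The sequences below come from the longest coding transcript of each gene in GENCODE M21 and read 5′ to 3′. Capitals mark bases that differ from Irx4:
Irx1: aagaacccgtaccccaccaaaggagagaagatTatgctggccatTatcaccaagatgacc
Irx2: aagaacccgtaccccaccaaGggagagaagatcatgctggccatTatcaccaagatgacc
Irx3: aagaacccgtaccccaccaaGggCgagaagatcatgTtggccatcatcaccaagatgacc
Irx4: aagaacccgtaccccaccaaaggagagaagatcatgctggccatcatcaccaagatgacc
Irx5: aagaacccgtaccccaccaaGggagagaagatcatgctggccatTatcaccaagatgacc
Irx6: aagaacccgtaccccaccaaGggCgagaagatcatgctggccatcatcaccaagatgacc
Over these 60 bases, Irx3 differed from Irx4 at 3 positions and each of the other genes at 2, and the Irx2 and Irx5 stretches were identical. No window of 150 bases, the length of 1 read, was shared between any Irx gene and another, so an untrimmed read could be assigned to 1 gene of the family. The study trimmed its reads. Of windows of 50 bases, from 0% (Irx1 and Irx4) to 1.45% (Irx3) of those of a gene also occurred in another Irx gene. Myh7 (chr14:54970684-54994626, minus strand) lies 3.8 kb from Myh6, and 3.64% of its 150-base windows also occur in Myh6. Reads from those windows cannot be assigned to either gene with certainty. Myl2 (chr5:122100951-122113472, plus strand) and Myl3 (chr9:110741861-110769798, plus strand) shared no such window with Myl7 and Myl4. Mycn is at chr12:12936093-12941914 on the minus strand.

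The total count per heart was between 44244665 (wild type replicate 5) and 56373393 (wild type replicate 3). Counts are given below as CPM, the counts of a gene scaled to the total of its heart after TMM normalization. Wt1 itself, the floxed gene, did not separate the groups. It had 39.97, 32.9 and 20.0 CPM in wild type replicates 2, 3 and 5 and 17.7, 33.3 and 35.7 CPM in the mutant hearts, in the order 1, 5 and 10. The log2 fold change of Wt1, mutant over wild type, was -0.10 ± 0.31 (SE, n = 3 per group; edgeR adjusted p = 0.990). Epicardial cells also express Wt1, the library is of the whole heart, and a count over the whole gene need not fall when an exon is removed. Wild type replicate 5 stood apart by gene length. Spearman's rho between a gene's length and its deviation from the mean of the 6 hearts was -0.556 in that heart, with short genes high and long genes low, and between -0.062 and 0.464 in the others (11795 genes, described without a test). Other hearts stood apart in markers of neighbouring tissue. Epcam, a gene of epithelia, had 267 and 264 counts in wild type replicate 5 and mutant replicate 5 and 10 to 37 in the others, and Myog, a regulator of skeletal muscle differentiation, had 1169 counts in wild type replicate 3 and 41 to 149 in the others. The median log2 fold change of the 10 genes, 0.28 with all hearts, was 0.28 without wild type replicate 5, 0.23 with mutant replicate 5 omitted and 0.29 with wild type replicate 3 left out. For the values that single hearts moved most, the value without those hearts is given beside them. Tnnt2, a marker of all cardiomyocytes, and the ventricular markers Irx4, Myl2, Myl3 and Myh7 were present in every heart. In RNA of whole hearts, fewer cells of a type and less RNA per cell cannot be told apart.

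All 10 genes had higher mean levels in the mutant hearts, by 8.72% (Mycn) to 26.7% (Irx6), but none passed the test across all genes (edgeR quasi-likelihood test, adjusted p between 0.652 and 0.985). In that fit 0% of the 17473 genes passed (DESeq2 passed 133 genes, none of the 10), 5.73% had an unadjusted p under 0.05, and 49.8% had a log2 fold change above 0. The median log2 fold change of the 10 genes was 0.28 against -0.0010 for all genes tested, whose quartiles were -0.14 and 0.12. Of the 10 genes, 4 had an unadjusted edgeR p under 0.05, all with higher mutant values (Irx1, Irx3, Irx4 and Irx5), where 3.14% of all genes did. In the same 4 genes the 3 mutant hearts all lay above the 3 wild type hearts, as they did for 6.61% of all genes.

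Irx4 was the Iroquois gene with the most counts. It had 72.7, 75.5 and 69.9 CPM in wild type replicates 2, 3 and 5 and 88.0, 85.9 and 92.1 CPM in mutant replicates 1, 5 and 10. The lowest mutant heart was above the highest wild type heart, with means of 72.7 ± 2.77 and 88.6 ± 3.14 CPM (SD, n = 3 each). The log2 fold change was 0.29 ± 0.09 (SE; edgeR adjusted p = 0.688). In FPKM, counts scaled to gene length and to the total of the heart as deposited, the levels were 29.7, 30.96 and 27.97 in wild type and 36.01, 34.7 and 35.1 in mutant hearts, and again did not overlap.

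Irx1 and Irx2, its neighbours on chromosome 13, are expressed more broadly in the embryo. Irx1 had 15.9, 20.0 and 19.3 CPM in wild type and 21.2, 24.6 and 21.9 CPM in mutant hearts, without overlap, and a log2 fold change of 0.30 ± 0.13 (SE; edgeR adjusted p = 0.862). Irx2 had 17.1, 24.0 and 20.3 CPM in wild type and 23.7, 27.9 and 22.6 CPM in mutant hearts. Here 2 mutant hearts lay below wild type replicate 3, so the groups overlapped, and the log2 fold change of 0.28 ± 0.15 (SE) had an edgeR adjusted p of 0.939. It was 0.16 without wild type replicate 2, 0.17 with mutant replicate 5 left out and 0.41 without wild type replicate 3. Irx1 and Irx2 moved together from heart to heart: the ratio of their FPKM stayed between 0.356 and 0.414 over the 6 hearts, while each gene alone spanned a wider range.

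On chromosome 8, Irx5 had the smallest p of the 10 genes. It had 23.7, 23.0 and 24.5 CPM in wild type and 28.6, 30.9 and 29.1 CPM in mutant hearts. The groups were well apart relative to their spread (23.8 ± 0.758 and 29.5 ± 1.2 CPM, SD, n = 3 each), and the log2 fold change was 0.31 ± 0.09 (SE; edgeR adjusted p = 0.652). Irx3, which is known from the trabecular and conducting myocardium, had 32.0, 28.4 and 31.0 CPM in wild type and 37.2, 40.2 and 32.9 CPM in mutant hearts (log2 fold change 0.27 ± 0.11, SE; edgeR adjusted p = 0.847). Mutant replicate 10 lay close to the wild type hearts, and in FPKM it fell below the highest of them (11.97 against 12.5). The FPKM groups of Irx3 therefore overlapped, and 3 of the 10 genes (Irx1, Irx4 and Irx5) were without overlap in FPKM, against 4.99% of all genes in that direction. Between 69 and 135 counts per heart were assigned to Irx3os, which is antisense to Irx3 and overlaps 4.49% of its exon bases, against 1364 to 2108 for Irx3.

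Irx6 was the scarcest of the family, with 276 to 505 counts per heart. It had 8.88, 6.71 and 6.27 CPM in wild type and 8.68, 9.63 and 9.42 CPM in mutant hearts. Wild type replicate 2 lay among the mutant hearts, and the log2 fold change of 0.34 ± 0.17 (SE), the largest estimate of the 10 genes, had an edgeR adjusted p of 0.915. The ratio of Irx3 to Irx5 FPKM was between 1.04 and 1.24 over the 6 hearts, with overlapping groups.

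**Figure D1:**
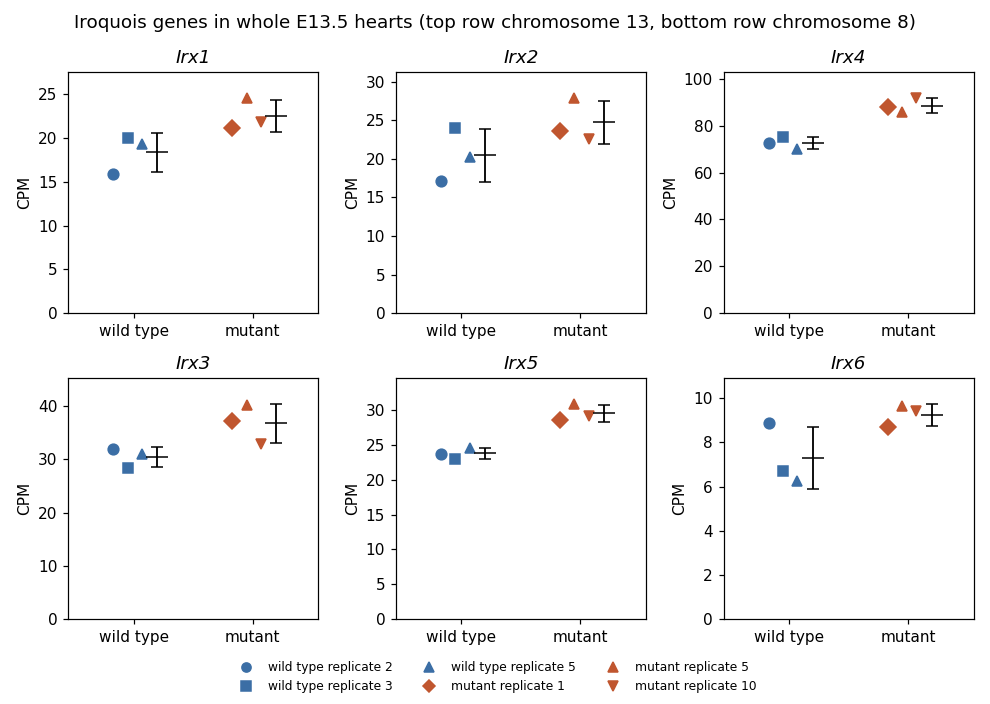
Levels of the 6 Iroquois genes in CPM (vertical axes, each from 0) in the 3 wild type and 3 mutant hearts, with the chromosome 13 genes above and the chromosome 8 genes below. Coloured symbols are single hearts and the black bars beside them the mean and SD of each group; Irx1, Irx3, Irx4 and Irx5 show no overlap between the groups, while Irx2 and Irx6 each have a wild type heart among the mutant ones.

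With all 6 hearts, the Iroquois differences were similar in size, with log2 fold changes between 0.27 and 0.34 and a median of 0.29. They were less alike with single hearts left out. Without wild type replicate 2 they ran from 0.16 (Irx2) to 0.51 (Irx6), and without wild type replicate 3 from 0.23 (Irx3) to 0.41 (Irx2). With all 6 hearts, the 3 genes of the chromosome 13 cluster had a median of 0.29 and the 3 of the chromosome 8 cluster one of 0.31.

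The myosin genes were among the most counted of the heart. Myl2 had 3388, 3454 and 4123 CPM in wild type and 4170, 4052 and 4429 CPM in mutant hearts. Wild type replicates 2 and 3 were low, while wild type replicate 5 lay between the mutant ones, so that the groups overlapped and the log2 fold change was 0.21 ± 0.14 (SE; edgeR adjusted p = 0.968). Myl3 showed the same arrangement, with 2702, 2745 and 3550 CPM in wild type and 3341, 3008 and 4008 CPM in mutant hearts and a log2 fold change of 0.20 ± 0.17 (SE; edgeR adjusted p = 0.985). Both light chain genes are short, and wild type replicate 5 is the heart in which short genes read high. Without that heart, the log2 fold changes were 0.30 for Myl2 (edgeR adjusted p = 0.266) and 0.34 for Myl3 (edgeR adjusted p = 0.337). Some other hearts, when dropped, moved both genes the other way. Dropping mutant replicate 10 lowered Myl2 to 0.17 and Myl3 to 0.08. For wild type replicate 2 these values were 0.16 and 0.14, and for wild type replicate 3 they were 0.17 and 0.15. Dropping mutant replicate 1 or 5 gave 0.22 for Myl2, and 0.23 or 0.28 for Myl3. With all 6 hearts and each heart's trend with gene length removed, Myl2 and Myl3 were at 0.30 and 0.25 (edgeR adjusted p = 0.722 and 0.754). When wild type replicate 5 was dropped from that fit as well, Myl2 was at 0.21, as in the main fit, and Myl3 at 0.27.

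Myh7 had 4054, 3736 and 1477 CPM in wild type and 3234, 4201 and 4094 CPM in mutant hearts. Wild type replicate 5 held less Myh7 than any other heart, and the other 2 wild type hearts lay within the range of the mutant ones. The log2 fold change of 0.32 ± 0.34 (SE; edgeR adjusted p = 0.985) rested on that heart: without it the value was -0.02 ± 0.13 (SE; edgeR adjusted p = 0.969), and without wild type replicate 2 or 3 it was 0.56 or 0.48. No difference in Myh7 was thus detectable in these hearts in either fit. Myh7 overlaps the antisense transcript Mhrt over 5.62% of its exon bases, and 32 to 119 counts per heart were assigned to Mhrt. It also overlaps the antisense gene Gm31251, which was not among the genes counted, over 6.07%. Since the strand setting was not given, the Mhrt counts do not bound the reads from shared bases.

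Mycn had 65.7, 62.1 and 55.1 CPM in wild type and 61.4, 63.4 and 74.2 CPM in mutant hearts. Only mutant replicate 10 was above all wild type hearts, and the log2 fold change was 0.12 ± 0.12 (SE; edgeR adjusted p = 0.985), which became 0.03 without that heart and 0.05 without wild type replicate 5. Of the 10 genes, Mycn had the smallest difference.

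**Figure D2:**
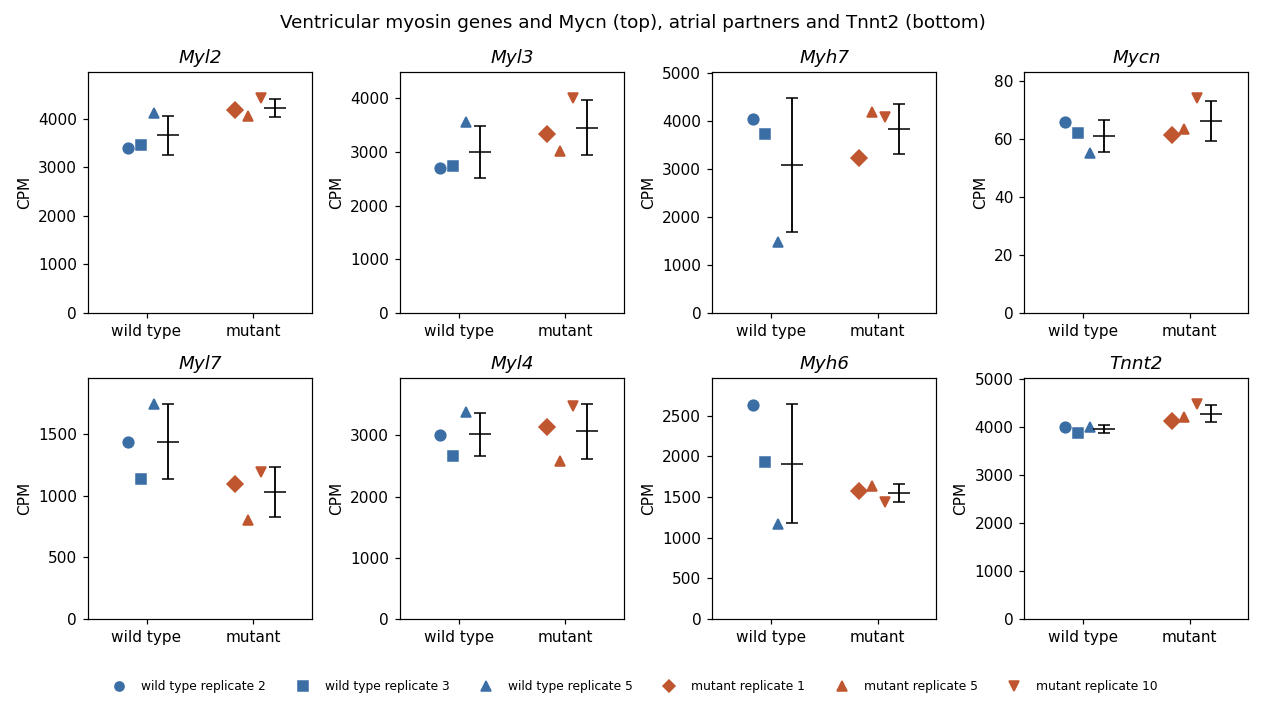
Levels in CPM (vertical axes, each from 0) of Myl2, Myl3, Myh7 and Mycn above, and below of the atrial partners Myl7, Myl4 and Myh6 and of the pan-cardiomyocyte gene Tnnt2, in 3 wild type and 3 mutant hearts. Symbols are single hearts and black bars the mean and SD; the upward blue triangle, wild type replicate 5, is the highest wild type heart for Myl2 and Myl3 and the lowest for Myh7 and Myh6.

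Across genes, levels can be compared only per length. By the mean FPKM of the 6 hearts the order was Myl2 (7874), Myl3 (4029), Myh7 (839), Mycn (32.5), Irx4 (32.4), Irx2 (22.3), Irx3 (12.9), Irx5 (11.1), Irx1 (8.62) and Irx6 (2.66). Mycn and Irx4 did not differ beyond their spread, since Mycn was the higher of the pair in wild type hearts (31.5 ± 3.13 against 29.5 ± 1.5 FPKM, SD, n = 3) and Irx4 in mutant hearts (35.3 ± 0.680 against 33.4 ± 2.16 FPKM). Irx3 and Irx5 lay close as well, with ranges of 11.1 to 15.5 and 9.77 to 12.9 FPKM. The lengths behind the deposited FPKM matter for this order. Irx2 was divided by 1015 bases, whereas its longest coding transcript has 2625. Per length of the longest coding transcript, the order of the Iroquois genes was Irx4 (31.1 counts per kilobase of transcript, scaled to the total), Irx3 (12.2), Irx5 (10.4), Irx1 (8.62), Irx2 (8.61) and Irx6 (2.45). On that scale Irx1 and Irx2 were level and Mycn (23.8) was below Irx4. The fixed length by which a gene is divided cancels in its fold change between hearts. The trend of a heart with gene length, described above, does not cancel.

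Within 1 heart, the ratio of a ventricular to an atrial myosin gene does not depend on the library size. The ratio of Myl2 to Myl7 FPKM was 2.80, 3.60 and 2.80 in wild type replicates 2, 3 and 5 and 4.52, 6.00 and 4.39 in mutant replicates 1, 5 and 10. Every mutant heart was above every wild type heart, by 1.62-fold on average (log2 difference 0.69; group means 1.61 ± 0.21 and 2.30 ± 0.25 on the log2 scale, SD, n = 3 each). The exact two-sided permutation test gave p = 0.1, the smallest value that 3 hearts against 3 allow. The atrial partner contributed more to this ratio than Myl2 did: Myl7 had 1432, 1135 and 1742 CPM in wild type and 1092, 799 and 1192 CPM in mutant hearts, a log2 fold change of -0.48 ± 0.20 (SE; edgeR adjusted p = 0.860).

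The ratio of Myh7 to Myh6 FPKM was 0.580, 0.727 and 0.476 in wild type and 0.772, 0.964 and 1.07 in mutant hearts. The groups again did not overlap, with a 1.59-fold difference (log2 difference 0.66; exact permutation p = 0.1). In this pair wild type replicate 5, lowest for Myh7 alone, was low for Myh6 too, and without it the log2 difference was 0.52. Myh6 had a log2 fold change of -0.30 ± 0.26 (SE; edgeR adjusted p = 0.985). Whether the ratio was above or below 1 depended on the length used, since the deposited FPKM divides Myh6 by 1554 bases although its longest coding transcript has 6113. Per longest coding transcript, Myh7 was above Myh6 in all 6 hearts, by 1.24-fold to 2.80-fold.

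Myl3 to Myl4 showed the smallest difference of the 3 pairs. The FPKM ratio was 1.22, 1.40 and 1.42 in wild type and 1.44, 1.58 and 1.56 in mutant hearts, without overlap but with mutant replicate 1 next to wild type replicate 5. The difference was 1.14-fold (log2 difference 0.19; exact permutation p = 0.1). Myl4 had a log2 fold change of 0.02 ± 0.16 (SE). Adjusted over the 3 pairs by the Benjamini-Hochberg method, the exact permutation p stayed at 0.1 for each. Ventricular and atrial cells were not separated, and the part that chamber size or dissection has in these ratios was not tested.

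**Figure D3:**
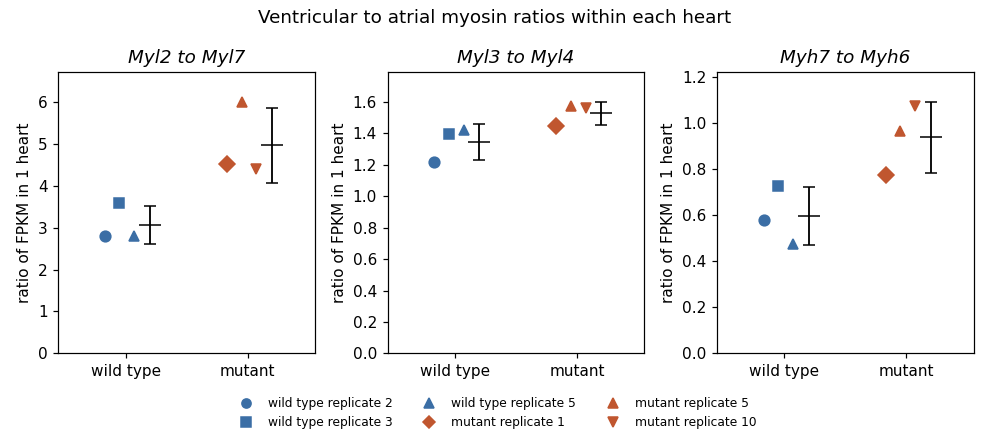
Ratio of ventricular to atrial myosin FPKM within each heart (vertical axes, each from 0, no unit) for Myl2 to Myl7, Myl3 to Myl4 and Myh7 to Myh6. Symbols are single hearts and black bars the mean and SD of 3; in all 3 pairs the mutant hearts lie above the wild type hearts, most widely for Myl2 to Myl7.

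Cardiac troponin T is made by all cardiomyocytes, so a count set against Tnnt2 compares a gene with the muscle in the same heart. Tnnt2 itself was 3875 to 4010 CPM in wild type and 4134 to 4483 CPM in mutant hearts (log2 fold change 0.11 ± 0.12, SE; edgeR adjusted p = 0.985), so its groups did not overlap either. Set against Tnnt2, all 10 genes kept a log2 difference above 0, but the share of all genes that did so was not taken. For Myh7 that sign rested on wild type replicate 5. Counts of Myh7 per 1000 Tnnt2 counts were 1011, 964 and 370 in wild type and 782, 997 and 913 in mutant hearts. Of the 10 genes, 2 remained without overlap, where 2.65% of all genes did in that direction. These genes, which were also the 2 without overlap when set against the summed counts of 16 pan-cardiomyocyte genes (3.38% of all genes), were Irx4 and Irx5. Irx4 had 18.1, 19.5 and 17.5 counts per 1000 Tnnt2 counts in wild type and 21.3, 20.4 and 20.5 in mutant hearts (log2 difference 0.18, exact permutation p = 0.1). Irx5 had 5.92, 5.94 and 6.14 counts per 1000 Tnnt2 counts in wild type and 6.92, 7.32 and 6.48 in mutant hearts (log2 difference 0.20, exact permutation p = 0.1). For Mycn the log2 difference was 0.01, and for Myl2 it was 0.10 with overlapping groups. With libraries scaled to 16 pan-cardiomyocyte genes, which moved the median of all genes to -0.08, the log2 fold changes of Irx4 and Irx5 were 0.20 and 0.23 and none of the 10 genes had an unadjusted edgeR p under 0.05.

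**Figure D4:**
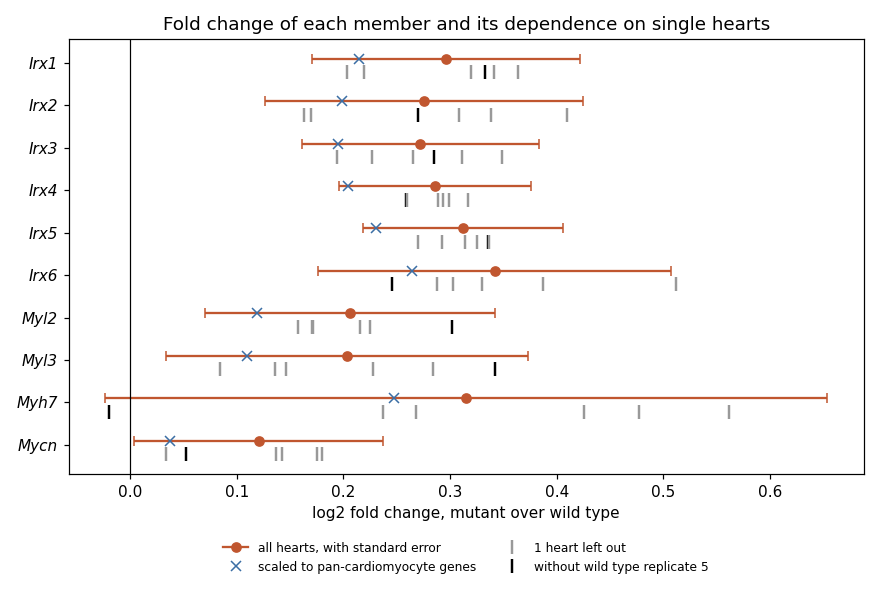
Log2 fold change, mutant over wild type, of each of the 10 genes (horizontal axis) in the edgeR fit on all 6 hearts (circle, with SE), with libraries scaled to pan-cardiomyocyte genes (cross) and with each heart left out (ticks, black for wild type replicate 5). Irx4 and Irx5 have the narrowest bars, and Myh7 is the only gene with a value below 0, which is the fit without wild type replicate 5.

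Other genes of the chambers were described with lists. Of 12 genes of the ventricular myocardium, which include Irx4, Myl2, Myl3 and Myh7, 10 had higher and 2 lower mutant values (median log2 fold change 0.19). None passed the edgeR test, and Irx4 had the smallest p. Of 10 trabecular genes, 7 were higher (median 0.19, and 0.30 without wild type replicate 2), with Cited1, a transcriptional coregulator, at 0.29 ± 0.10 (SE; edgeR adjusted p = 0.762), and Irx3 is also in this list. Of 10 genes of the compact wall, which include Mycn, 6 were higher and 4 lower (median 0.08, but -0.06 without wild type replicate 5, and 0.14 and 0.12 without wild type replicates 2 and 3). Prdm16, a transcription factor of compact myocardium, had the smallest p there (0.38 ± 0.12, SE; edgeR adjusted p = 0.688). Of 14 atrial genes 11 were lower and 3 higher (median -0.32, and -0.07 without wild type replicate 2), led by the potassium channel gene Kcna5 at -0.73 ± 0.11 (SE; edgeR adjusted p = 0.133). The 3 higher genes were Bmp10 (0.40), Gja5 (0.29) and Myl4 (0.02). Bmp10 and Gja5, and Nppa among the lower genes, are also in the trabecular list, so the 2 lists are not independent. Of 16 pan-cardiomyocyte genes 15 were higher, with a median of 0.10 and Tnnt2 the smallest p. That median was -0.01 without wild type replicate 5 and 0.04 with mutant replicate 10 left out.

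A further group of lists concerned the known company of the Iroquois and Myc genes. Of 10 electrical genes linked to Irx factors, 7 were higher in mutant hearts (median log2 fold change 0.16, with 0.11 without mutant replicate 5 and 0.27 with mutant replicate 10 left out). Gja1, which encodes the gap junction protein connexin 43, had 425, 439 and 365 CPM in wild type and 585, 709 and 670 CPM in mutant hearts (log2 fold change 0.68 ± 0.13, SE; edgeR adjusted p = 0.273). Kcnd2, 1 of the 3 lower genes of this list, was named after its values were seen. Irx5 is known to restrain this channel gene in the adult ventricle. Kcnd2 had 8.47, 6.78 and 7.34 CPM in wild type and 6.23, 5.67 and 6.10 CPM in mutant hearts (log2 fold change -0.33 ± 0.15, SE; edgeR adjusted p = 0.896). A part of Irx5 in this difference was not tested. Of 10 neighbours in the Irx clusters and cofactors, 7 were higher (median 0.06, but -0.09 without wild type replicate 5, -0.04 with mutant replicate 5 omitted and 0.17 with wild type replicate 2 left out), with Lpcat2, a phospholipid enzyme, the smallest p (edgeR adjusted p = 0.888). Of 11 Myc family genes 6 were higher (median 0.04, and between -0.05 and 0.02 with any 1 heart left out), with Mycl the smallest p (edgeR adjusted p = 0.920). Of 27 myosin chain and myosin light chain kinase genes, 22 could be tested, of which 9 were higher and 13 lower (median -0.13, and -0.07 without wild type replicate 3), Myh8 having the smallest p (edgeR adjusted p = 0.838) and Myh4 and Myl10, and 1 of the 2 identifiers of Myh14, being at 0 counts in all hearts.

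**Figure D5:**
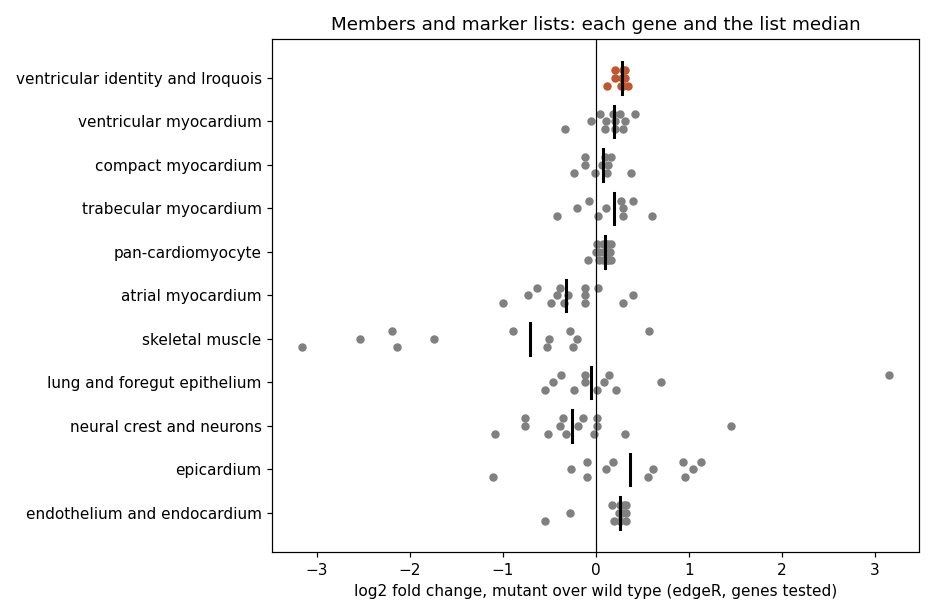
Log2 fold change, mutant over wild type, in the edgeR fit (horizontal axis) for the 10 genes (orange points, top) and for the genes of 10 marker lists (grey points), with a vertical bar at the median of each list. The 10 genes lie in a narrow band above 0 around 0.28, the atrial and skeletal muscle medians are at -0.32 and -0.70 (-0.07 without wild type replicate 2 and -0.20 with wild type replicate 3 left out), and no gene shown passed an adjusted p under 0.05.

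Markers of tissue next to the heart and of its other cell types were read as well. Of 16 skeletal muscle genes 12 were tested and 11 were lower in mutant hearts (median log2 fold change -0.70). The median was -0.20 without wild type replicate 3 and -1.75 with DESeq2. Here and below, the sum over a list is scaled to the total of the heart without TMM normalization. The summed level of the skeletal muscle genes was 459 to 533 CPM in wild type and 331 to 437 CPM in mutant hearts, with Tnnc2 at 0. Myog had the smallest p (edgeR adjusted p = 0.713). Of 16 lung and foregut genes 12 were tested, 6 in each direction (median -0.05, but 0.96 without wild type replicate 5 and -1.12 with mutant replicate 5 left out), and their sum was 4.68 to 30.6 CPM in wild type and 12.6 to 40.1 CPM in mutant hearts. The junction gene Cldn3 had the smallest p there (edgeR adjusted p = 0.0991). Of 14 genes of neural crest and neurons 10 were lower (median -0.26, but 0.10 without wild type replicate 5 and -0.46 with wild type replicate 2 left out), and the sums were 29.1 to 36.4 and 25.6 to 33.1 CPM. Prph, an intermediate filament gene of peripheral neurons, had the smallest p there with higher mutant values (log2 fold change 1.45 ± 0.33, SE; edgeR adjusted p = 0.385). Of 12 epicardial genes 8 were higher (median 0.37, with 0.09 without mutant replicate 10, 0.17 with wild type replicate 5 omitted and 0.59 with wild type replicate 2 left out), the sums were 317 to 595 and 387 to 624 CPM, and Tcf21, a transcription factor of epicardial cells, had the smallest p at a log2 fold change of -1.10 ± 0.15 (SE; edgeR adjusted p = 0.113). Of 12 endothelial genes 10 were higher (median 0.26, with 0.15 without wild type replicate 5 and 0.17 with mutant replicate 5 left out), the sums were 1163 to 1589 and 1439 to 1764 CPM, and Emcn had the smallest p (edgeR adjusted p = 0.847). The part of these tissues in the differences of the 10 genes was not tested.

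Promoter windows from RefSeq (GRCm38.p6), 250 bases before to 50 bases after a start, were at hand for 7 of the 10 genes in 9 windows, and not for Irx1, Irx5 and Irx6. The 9 windows were searched on both strands for a WT1 motif (GCGTGGGNG), a GATA motif (AGATAA) and a TATA box (TATAAA). The WT1 letters were in none of the 9, where 1.9% of 32851 windows hold them. The GATA letters and the TATA box letters were each in 1, both for Myl2, against 11.2% and 13.6% of all windows. The GATA letters lay at -211 and the TATA box letters at -216, each from the start of its own window. Both Myl2 windows lie upstream of the start of the gene in GENCODE M21. They end at chr5:122092773 and chr5:122093238, while the gene starts at chr5:122100951, so the bases around that start were not searched. The window of Irx4 (chr13:73260247-73260546, plus strand), the Iroquois gene with the most counts in these hearts, held none of these motifs and is shown here, in lower case throughout since no motif was found:
Irx4: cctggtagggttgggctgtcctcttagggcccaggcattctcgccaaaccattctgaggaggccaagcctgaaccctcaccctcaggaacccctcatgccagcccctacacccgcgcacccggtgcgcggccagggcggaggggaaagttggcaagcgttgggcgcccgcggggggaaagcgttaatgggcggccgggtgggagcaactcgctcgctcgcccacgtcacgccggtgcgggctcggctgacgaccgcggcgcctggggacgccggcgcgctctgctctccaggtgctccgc
The absence of a motif in this window says nothing of binding elsewhere at the gene.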

How the data were processed

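RNA of whole E13.5 hearts was sequenced as paired reads of 150 bases, 3 mutant and 3 wild type. By the study's methods, the authors aligned the reads with STAR to GRCm38 and counted uniquely mapped reads per gene with featureCounts, whereas the submitters' processing notes name HTSeq and DESeq2. The strand setting was not given in the sources used here, so bases shared with antisense genes are uncertain. The authors deposited raw counts per gene and FPKM values. In these, every gene has 1 fixed length, by which its count was divided after scaling to the total of the heart. A second copy of the counts and FPKM values was only compared with the first, and the largest difference was 0 for both. A table of group means was not used, and 0 columns were left unmapped to a heart.

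The counts were tested with edgeR 4.0.16 (R 4.3.3): quasi-likelihood test, TMM, filterByExpr (minimum count 10, minimum total 15), 2-sided, with no covariates and an adjusted p under 0.05 by the Benjamini-Hochberg method over all genes tested. Ratios within a heart were compared with exact permutation tests. The alternatives were DESeq2 1.42.0, limma 3.58.1 (voom, or trend on log2 of FPKM plus 1 or 0.1), other size factors, no filter, scaling to pan-cardiomyocyte genes, removal of the gene length trend (local regression, span 0.5), and each heart left out. Counts set against Tnnt2, FPKM overlap, and removal of the length trend without wild type replicate 5 were added after the data were seen. The 10 genes and all lists were chosen with earlier results of these data known. Named besides them are genes passing the threshold in a list or, where none passed, the gene with the smallest p, the myosin partners, Wt1 and Tnnt2, and the 3 genes most like each of the 10. p-values measure the spread between hearts only. Figures were drawn with matplotlib 3.10.9.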

Additional observations from a re-analysis of the deposited data

How the results depend on the processing

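None of the 10 genes had an adjusted p under 0.05 in any of the 15 alternatives, and the lowest was 0.148 (Irx5, with the length trend removed and wild type replicate 5 left out). Of 150 log2 fold changes of the 10 genes over these alternatives, 149 were above 0. These are refits of the same 6 hearts, so they are not independent of each other. The exception was Myh7 at -0.019 without wild type replicate 5, and its values with each heart left out ran from there to 0.56. The number of genes of the whole table with an adjusted p under 0.05, 0 in edgeR, was 133 with DESeq2, 34 without the filter, 6 with the length trend removed and 41 with the trend removed and wild type replicate 5 left out. With each heart left out it was 0 to 44, with 44 for wild type replicate 5. The number of the 10 genes with an unadjusted p under 0.05 was 4 with all hearts in edgeR, where 5.73% of all genes had one. It was 3 with DESeq2, 2 with each of the FPKM fits and 0 with scaling to pan-cardiomyocyte genes. It was 2 whenever 1 mutant heart was left out. Without wild type replicate 5, the fit in which 44 genes of the whole table passed, it was 6. The share of all genes was not taken in these other fits, so their counts cannot be set against it. The log2 differences of the ratios with each heart left out were 0.55 to 0.81 for Myl2 to Myl7, 0.11 to 0.23 for Myl3 to Myl4 and 0.52 to 0.82 for Myh7 to Myh6. With the length trend removed they were 0.71, 0.21 and 0.59. That trend was fitted on the lengths behind the deposited FPKM, 4129 bases for Myh7 and 1554 for Myh6. In wild type replicate 5 its log2 value was -0.26 for Myh7 and 0.01 for Myh6. The 0.59 therefore corrected mainly Myh7 in that heart. The longest coding transcripts of Myh7 and Myh6 are close in length (6230 and 6113 bases). No paired analysis was made, because the labels do not pair any mutant heart with a wild type heart. With 3 hearts per group the exact permutation test cannot give a p below 0.1.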

Other observations

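For each of the 10 genes, the 3 genes with the closest profile over the 6 hearts were listed among 11785 other genes, by Pearson's r of log2 CPM. With 6 hearts and so many candidates, high values of r arise for any gene, and they are given as a description. The closest genes were Sfxn3, Paip2b and Osgin2 for Irx1, Cd47, Mtif2 and Spata6 for Irx2, and Rab27b, Dio2 and Fnip1 for Irx3. They were Wars2, Sgk1 and Spin1 for Irx4, Rabgap1l, Mtmr10 and Tnip2 for Irx5, and Mansc1, Fitm2 and H19 for Irx6. For the myosin genes they were Fbxo8, Timp1 and Galk2 (Myl2), Atg14, Fam57a and 1110007C09Rik (Myl3) and Arhgap35, Nup98 and Map3k5 (Myh7), and for Mycn they were Lrrc41, Trap1 and Pgm2. All of these r lay between 0.976 and 0.999. None of the 10 genes was among the closest genes of another, since only other genes were searched.

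The gene lengths behind the deposited FPKM were close to the mean length of a gene's transcripts in GENCODE M21, within 1 base, for 8 of 13 genes compared (the 10 genes and Myl7, Myl4 and Myh6). For Myl2, which has 12 transcripts there, the length was 499 bases while the longest coding transcript has 889.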
